A study of Homo sapiens with 12 samples.

Results

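BCL6, GCSAM, MYBL1, LMO2, MME, CD38, IRF4, IRF8 and PRDM1 are regulators and surface markers of the germinal centre B cell and of the plasma cell that it can become. They were chosen by symbol, with earlier results of these data known. Their rows are those of the expression table that the platform annotation assigns to each gene. Each gene had 1 row, which gave 9 rows of 32321 in the table and of 20546 with a gene symbol. Their log2 levels were read in 4 groups of 3 arrays.

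Germinal centre B cells mature in the lymph node under BCL6, a transcriptional repressor that holds back differentiation, DNA damage checkpoints and migration out of the follicle. Leaving that state for the plasma cell requires IRF4 and PRDM1 (the BLIMP1 protein), and PRDM1 and BCL6 repress each other's genes. Reed-Sternberg cells of classical Hodgkin lymphoma descend from germinal centre B cells and express few of the genes that mark a B cell, and EBF1 is a transcription factor that specifies and maintains the B lineage.

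L-428 and L-1236 are established Hodgkin lymphoma cell lines. Cells of each line received a construct encoding tGFP and EBF1 (tGFP/EBF1) or one encoding tGFP alone (tGFP), grew for 8 days and were then sorted for tGFP. The groups were therefore L-428 tGFP/EBF1, L-428 tGFP, L-1236 tGFP/EBF1 and L-1236 tGFP, each with 3 samples that the study's design text calls independent, and all 4 carry tGFP. Total RNA was amplified and hybridised to Affymetrix arrays, with 1 array a sample. The study's question, as its comparisons state it, was which genes differ between tGFP/EBF1 and tGFP cells of the same line. Each line comes from 1 tumour, so a difference between L-428 and L-1236 is one between these 2 lines. The promoter that drives the construct is not given in the sources used here.

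The row of EBF1, which the annotation shares with PDGFRB, had a log2 level of 12.96 ± 0.027 in L-428 tGFP/EBF1 cells, against 8.45 ± 0.16 in L-428 tGFP cells (SD, n = 3 each), which is 22.8-fold higher. In L-1236 the same row had 13.15 ± 0.11 in tGFP/EBF1 cells and 7.17 ± 0.057 in tGFP cells, 62.8-fold higher. Array medians lay between 7.19 and 7.31. The third L-428 tGFP array had a narrower interquartile range (2.28) than the other two of its group (2.49 and 2.47), and it was the lowest of its group in 6 of the 9 genes. The second L-428 tGFP/EBF1 array was also the lowest of its group in 6 of the 9. Interquartile ranges ran from 2.17 to 2.31 on the L-1236 arrays, and from 2.41 to 2.49 on the other L-428 arrays. All 5 Hodgkin cell markers (TNFRSF8, CCL17, TRAF1, FSCN1 and CCL22) lay above the array median in every group except L-428 tGFP, where 1 lay below it. All 5 T-cell markers lay below it in every group. Of the B-cell markers 4 of 5 were measured. MS4A1 (CD20) had a mean between 5.86 and 5.89 in every group, and 2 or 3 of the 4 lay below the array median in each group. The mean of these 4 markers on each array ran from 6.961 to 6.996 in L-428 tGFP/EBF1 cells, against 6.84 to 6.92 in L-428 tGFP cells, and from 7.64 to 7.70 in L-1236 tGFP/EBF1 cells, against 7.32 to 7.39 in L-1236 tGFP cells. In neither line did the 4 markers move together. In L-428 CD79A ran from 7.15 to 7.23 in tGFP/EBF1 cells, against 6.92 to 6.98 in tGFP cells. There PAX5 ran from 7.81 to 7.96, against 7.65 to 7.70, and the ranges of CD79B and of MS4A1 overlapped. CD79A ran from 8.14 to 8.26 in L-1236 tGFP/EBF1 cells, against 6.92 to 7.07 in L-1236 tGFP cells. CD79B in L-1236 ran from 7.22 to 7.33, against 6.99 to 7.07. PAX5 in L-1236 was lower with EBF1, from 9.33 to 9.46 against 9.47 to 9.54, and the ranges of MS4A1 overlapped. The part of these B-cell marker levels in the results below was not tested.

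**Figure D1:**
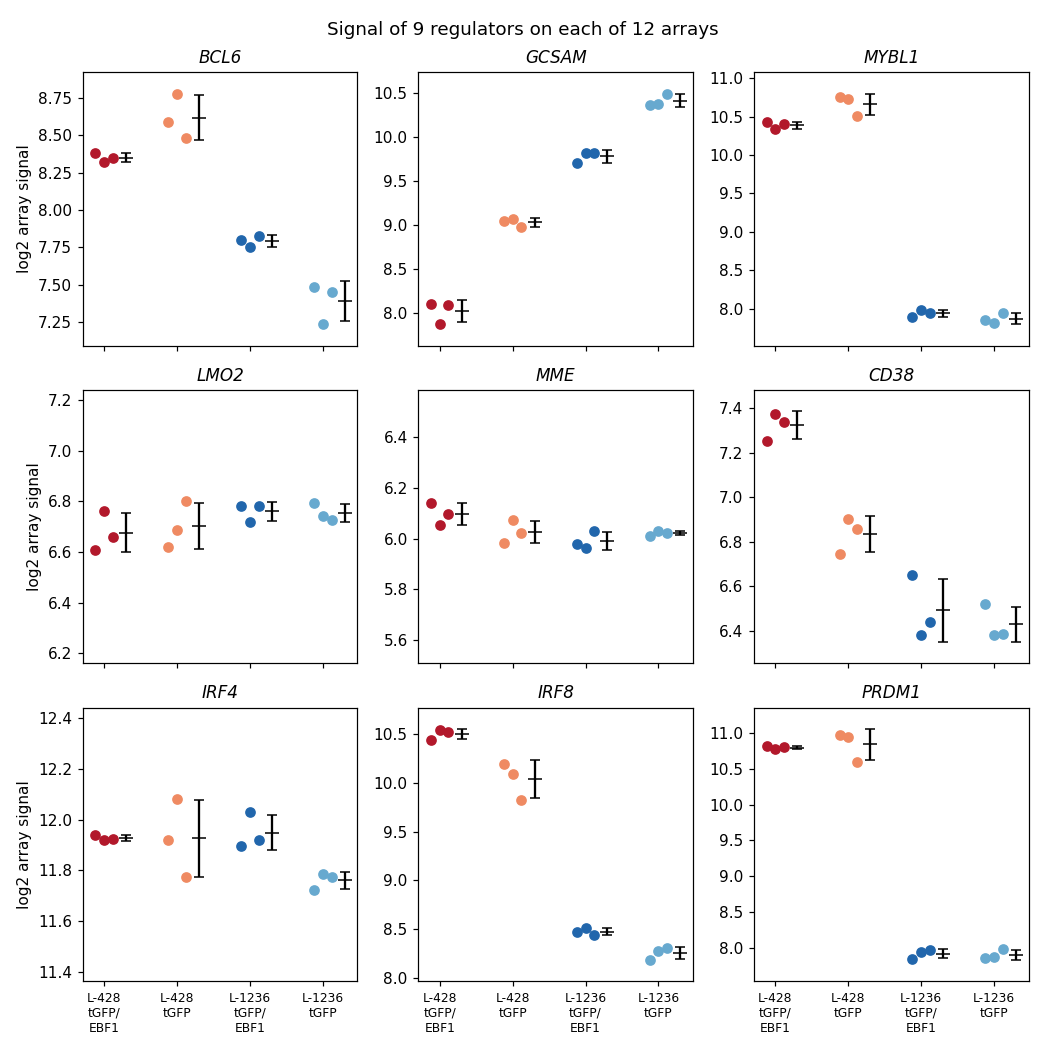
Log2 array signal of each of the 9 genes on all 12 arrays. Points are arrays in replicate order, the line beside them is the group mean with its SD (n = 3), and every panel spans at least 1 log2 unit. The L-428 arrays sit below the L-1236 arrays for GCSAM and above them for BCL6, MYBL1, CD38, IRF8 and PRDM1. For LMO2, MME and IRF4 the L-428 and L-1236 arrays overlap.

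Promoter sequences came from RefSeq (GRCh38.p14), each running from 250 bases before a transcription start to 50 bases after it. They were read for 7 of the 9 genes, all but LMO2 and MYBL1, in 13 windows. Windows on the chromosome of MYBL1 were left out for these genes, so its absence here does not show that it lacks one. The counts over all windows had no such limit. Sequences are shown for the 3 genes that passed the test for EBF1 in L-428 and have a window among the 13 (GCSAM, CD38 and IRF8). That of BCL6, whose response differed most between the lines, is shown too. Both strands were searched for 3 short motifs. The core of an EBF1 site (CCCNNGGG, which reads the same on both strands) was in 19.07% of all 35116 windows and in 1 of the 13, an alternative start of MME. The core of a BCL6 site (TTCCTAGAA) was in 0.373% of all windows and in 1 of the 13, that of BCL6. The core of an interferon-stimulated element, the kind of site that IRF proteins bind (GAAANNGAA), was in 8.107% of all windows and in 1 of the 13, that of CD38. No match overlapped one of another motif. A match describes these letters in these windows and says nothing of binding. The sequences run 5′ to 3′, with any motif in capitals. The first 3 are the 250 bases before the start, at chr3:112133249-112133498 (minus strand) for GCSAM, chr4:15778078-15778327 (plus strand) for CD38 and chr16:85902580-85902829 (plus strand) for IRF8. The fourth is chr3:187745419-187745448 (minus strand), the 30 bases from position 21 to 50 after a BCL6 start, where the capitals are the reverse complement of the BCL6 core.
GCSAM: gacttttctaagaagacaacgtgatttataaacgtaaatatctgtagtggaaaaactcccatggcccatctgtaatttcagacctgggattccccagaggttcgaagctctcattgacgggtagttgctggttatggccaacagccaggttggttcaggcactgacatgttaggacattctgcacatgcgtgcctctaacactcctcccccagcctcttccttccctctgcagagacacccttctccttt
CD38: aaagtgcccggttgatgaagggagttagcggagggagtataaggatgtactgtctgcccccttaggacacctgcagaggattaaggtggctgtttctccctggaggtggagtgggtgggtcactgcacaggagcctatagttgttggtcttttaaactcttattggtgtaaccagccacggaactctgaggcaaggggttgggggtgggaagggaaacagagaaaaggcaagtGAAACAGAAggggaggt
IRF8: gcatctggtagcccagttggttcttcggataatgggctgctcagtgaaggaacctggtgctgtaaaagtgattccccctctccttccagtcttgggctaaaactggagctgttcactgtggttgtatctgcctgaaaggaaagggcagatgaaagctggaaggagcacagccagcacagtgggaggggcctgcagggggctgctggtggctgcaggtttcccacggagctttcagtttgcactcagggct
BCL6: tggtgatgcaagaagtTTCTAGGAAaggcc

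With EBF1, GCSAM fell in both lines, CD38 and IRF8 rose in L-428, MYBL1 fell in L-428, and BCL6 rose in L-1236. IRF4, PRDM1, LMO2 and MME passed the test in neither line. In L-428, 4 of the 9 genes passed (2 rose and 2 fell), where 4.34% of all rows with a symbol passed, and 1 of the 4 also met the 2-fold limit that the study's design text sets, which 0.0973% of all rows met. In L-1236, 2 of the 9 passed (1 rose and 1 fell), where 9.64% of all rows did, and none met the 2-fold limit, which 0.146% of all rows met. A gene passed at a limma p of 0.05 or less, adjusted by Benjamini-Hochberg over all rows with a symbol. The median size of the log2 change over the 9 genes was 0.27 in L-428, against 0.056 over all rows tested, and 0.067 in L-1236, against 0.072 over all rows tested. Because earlier results of these data were known when the 9 were chosen, these values cannot show that the set responds more than others. As the cells were measured in bulk, fewer cells expressing a gene and less of its RNA per cell cannot be told apart.

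GCSAM (also called HGAL), a germinal centre adaptor protein that restrains cell motility and modulates B-cell receptor signals, was the gene that fell in both lines. In L-428 its log2 level was 8.10, 7.88 and 8.09 on the tGFP/EBF1 arrays, against 9.05, 9.07 and 8.97 on the tGFP arrays. Every tGFP/EBF1 array was below every tGFP array, with a gap wider than the spread inside either group. The level fell by 1.01 ± 0.069 on the log2 scale (SE), 2.01-fold lower (adjusted p = 2.28e-08). In L-1236 the level was 9.70, 9.82 and 9.82 on the tGFP/EBF1 arrays, against 10.36, 10.38 and 10.49 on the tGFP arrays, again without overlap. It fell by 0.63 on the log2 scale, 1.55-fold lower (adjusted p = 4.74e-06). L-1236 tGFP/EBF1 cells thus still had a higher level than L-428 tGFP cells, and the 4 groups stood in the order L-1236 tGFP, L-1236 tGFP/EBF1, L-428 tGFP and L-428 tGFP/EBF1 from the highest, none overlapping its neighbour. The L-428 change lay close to the 2-fold limit, at -0.96 under quantile normalization and -0.99 with each array centred on its median, so that GCSAM met the limit under neither. It was also short of the limit without the second L-428 tGFP/EBF1 array (-0.94) or without the second L-428 tGFP array (-0.99).

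BCL6, the repressor that defines the germinal centre B cell and can bind its own gene, differed in direction between the lines. In L-428 its log2 level was 8.38, 8.32 and 8.35 on the tGFP/EBF1 arrays, against 8.59, 8.78 and 8.48 on the tGFP arrays. All tGFP/EBF1 arrays were lower, but the difference of -0.27 (95% interval -0.43 to -0.11) had an adjusted p of 0.0571 and did not pass. In L-1236 the level was 7.80, 7.75 and 7.83 on the tGFP/EBF1 arrays, against 7.48, 7.24 and 7.45 on the tGFP arrays. Here every tGFP/EBF1 array was higher, and BCL6 rose by 0.40 ± 0.077 on the log2 scale (SE), or 1.32-fold (adjusted p = 0.00165). Both L-428 groups were above both L-1236 groups, the highest mean being that of L-428 tGFP cells and the lowest that of L-1236 tGFP cells, and no neighbouring groups overlapped. The L-428 difference passed under 8 of 22 alternatives, among them leaving out the third L-428 tGFP array (-0.33) or the second L-1236 tGFP array, and its adjusted p ran from 0.00277 to 0.275.

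MYBL1 (A-MYB), a transcription factor of dividing germinal centre cells, had log2 levels of 10.43, 10.33 and 10.40 on the L-428 tGFP/EBF1 arrays, against 10.75, 10.73 and 10.50 on the L-428 tGFP arrays. The groups did not overlap, and MYBL1 fell by 0.28 on the log2 scale, 1.21-fold lower (adjusted p = 0.0265). In L-1236 it had 7.89, 7.98 and 7.94 on the tGFP/EBF1 arrays, against 7.85, 7.81 and 7.94 on the tGFP arrays, where the groups overlapped and the difference was 0.07 (adjusted p = 0.663). The L-428 call was lost without any single L-428 tGFP/EBF1 array and without the first or second L-428 tGFP array, with an adjusted p of up to 0.126 in those fits. It was also lost with each array centred on its median (adjusted p = 0.140), with every row of the table tested (adjusted p = 0.0700) and with the L-428 arrays fitted alone (adjusted p = 0.0654).

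LMO2, an adaptor in transcription factor complexes that germinal centre B cells express, was near the same level on all 12 arrays, between 6.61 and 6.80. Its group means lay between percentiles 35.7 and 36.4 of all rows. Its differences with EBF1 were -0.03 in L-428 and 0.01 in L-1236, with adjusted p of 0.955 and 0.973. MME (CD10), a surface peptidase of precursor and germinal centre B cells, lay between 5.96 and 6.14 on all arrays, between percentiles 14.1 and 18.9. Its differences with EBF1 were 0.07 in L-428 and -0.03 in L-1236 (adjusted p of 0.708 and 0.828). Neighbouring groups overlapped for both genes.

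IRF8, an interferon regulatory factor that is abundant in germinal centre B cells and helps drive BCL6 expression, had log2 levels of 10.44, 10.54 and 10.52 on the L-428 tGFP/EBF1 arrays, against 10.20, 10.09 and 9.83 on the L-428 tGFP arrays. All tGFP/EBF1 arrays were above all tGFP arrays, and IRF8 rose by 0.46 on the log2 scale, or 1.38-fold (adjusted p = 0.00114). The lowest value, 9.83, was that of the third tGFP array, and without it the rise was 0.35. In L-1236 the levels were 8.47, 8.51 and 8.44 on the tGFP/EBF1 arrays, against 8.19, 8.27 and 8.30 on the tGFP arrays. The groups again did not overlap, but the difference of 0.22 (95% interval 0.06 to 0.38) had an adjusted p of 0.0850. It passed under 5 of 22 alternatives, and its adjusted p ran from 0.00277 to 0.268. Among the 5 were the fit without the third L-428 tGFP array and that of the L-1236 arrays alone (adjusted p = 0.0352). The order was L-428 tGFP/EBF1, L-428 tGFP, L-1236 tGFP/EBF1 and L-1236 tGFP from the highest, with no overlap between neighbours.

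IRF4, which at high levels drives plasma cell differentiation and is abundant in Hodgkin cells, was the brightest of the 9 rows, between percentiles 98.1 and 98.5 in the 4 groups. In L-428 it had 11.94, 11.92 and 11.92 on the tGFP/EBF1 arrays, against 11.92, 12.08 and 11.78 on the tGFP arrays. The groups overlapped, with a difference of 0.00 (95% interval -0.14 to 0.15). In L-1236 it had 11.90, 12.03 and 11.92 on the tGFP/EBF1 arrays, against 11.72, 11.79 and 11.77 on the tGFP arrays. These groups did not overlap, and the difference of 0.19 had an adjusted p of 0.108. It passed under 4 of 22 alternatives, including the fit without the third L-428 tGFP array (adjusted p between 0.0141 and 0.275 over all 22). The group means lay within 0.19 of each other, and every group overlapped its neighbour in the order.

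CD38, an ectoenzyme that is high on germinal centre B cells and highest on plasma cells, had log2 levels of 7.25, 7.37 and 7.34 on the L-428 tGFP/EBF1 arrays, against 6.75, 6.90 and 6.86 on the L-428 tGFP arrays. All tGFP/EBF1 arrays were higher, and CD38 rose by 0.49 on the log2 scale, or 1.40-fold (adjusted p = 0.000404). In L-1236 it had 6.65, 6.38 and 6.44 on the tGFP/EBF1 arrays, against 6.52, 6.38 and 6.39 on the tGFP arrays. Those groups overlapped, with a difference of 0.06 (95% interval -0.09 to 0.22; adjusted p = 0.714). The mean of L-428 tGFP/EBF1 cells was at percentile 52.4 of all rows, and that of the lowest group, L-1236 tGFP, at percentile 26.8.

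PRDM1, which shuts down the B-cell programme in plasma cells, had log2 levels of 10.82, 10.77 and 10.80 on the L-428 tGFP/EBF1 arrays, against 10.98, 10.95 and 10.60 on the L-428 tGFP arrays. The tGFP/EBF1 values lay inside the range of the tGFP values, with a difference of -0.04 (95% interval -0.21 to 0.13). In L-1236 it had 7.85, 7.94 and 7.97 on the tGFP/EBF1 arrays, against 7.86, 7.87 and 7.98 on the tGFP arrays, where the ranges coincided and the difference was 0.01 (95% interval -0.16 to 0.18). In both lines the interval leaves out a change of 2-fold.

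**Figure D2:**
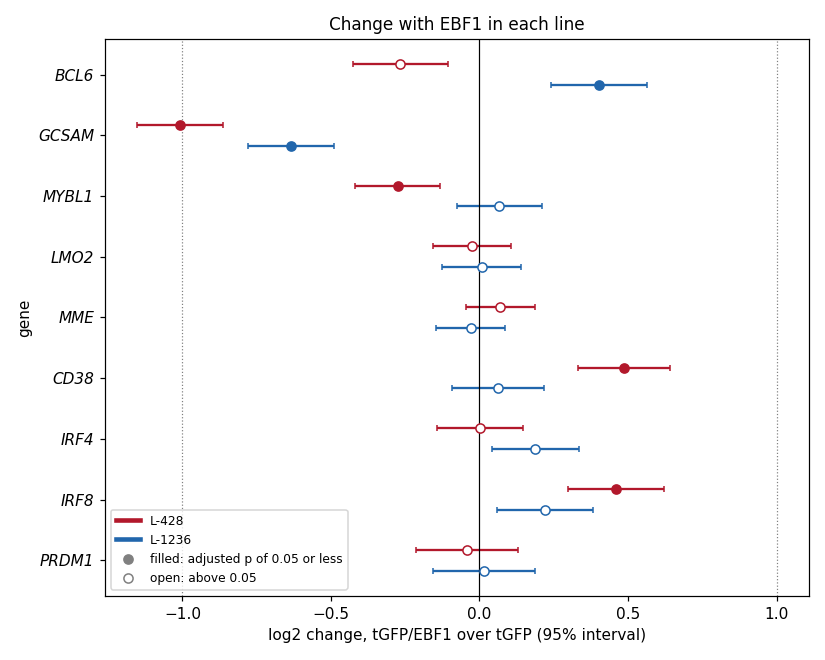
Log2 change of tGFP/EBF1 over tGFP cells for each gene, in L-428 and in L-1236, with 95% intervals from limma. Filled points passed the test, open points did not, and dotted lines mark 2-fold; GCSAM in L-428 is the point beyond a dotted line, and BCL6 has a positive change in L-1236 and a negative one in L-428.

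The change with EBF1 was then compared between the lines, as the change in L-428 minus the change in L-1236. It differed for 4 of the 9 genes (1 higher and 3 lower), where 5.16% of all rows passed. BCL6 had the largest difference of the 9, -0.67 ± 0.11 on the log2 scale (SE; adjusted p = 0.000886), with changes of -0.27 in L-428 and 0.40 in L-1236. CD38 differed by 0.42 (adjusted p = 0.0206), GCSAM by -0.38 (adjusted p = 0.0300) and MYBL1 by -0.34 (adjusted p = 0.0482). Of these calls that of BCL6 held when any 1 array was left out. That of MYBL1 was lost in 10 of the 12 such fits, that of GCSAM in 7 and that of CD38 in 5, with adjusted p of up to 0.139, 0.0932 and 0.0653. IRF8, which rose in L-428 and did not pass in L-1236, had a difference of 0.24 between its changes that did not pass (adjusted p = 0.263), and IRF4 had one of -0.19 (adjusted p = 0.375). The IRF4 difference passed under 2 of 22 alternatives, at -0.23 with array weights (adjusted p = 0.0338) and -0.29 without both the third L-428 tGFP array and the first L-1236 tGFP/EBF1 array (adjusted p = 0.0390), and its adjusted p reached 0.622 under another. LMO2, MME and PRDM1 had differences of -0.03, 0.10 and -0.06 and did not pass.

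Without EBF1, the lines stood apart in 6 of the 9 genes (5 higher and 1 lower in L-428 tGFP than in L-1236 tGFP cells), where 47.9% of all rows passed, and in 5 of 9 by at least 2-fold, where 7.2% of all rows did. PRDM1 had a log2 level of 10.84 ± 0.21 in L-428 tGFP cells and 7.91 ± 0.069 in L-1236 tGFP cells (SD, n = 3 each), 7.65-fold higher in L-428 (adjusted p = 6.07e-16). MYBL1 had 10.66 ± 0.14 in L-428 tGFP cells and 7.87 ± 0.068 in L-1236 tGFP cells, 6.93-fold higher. A plasma cell regulator and a germinal centre regulator were thus both higher in L-428. IRF8 was 3.44-fold higher in L-428, BCL6 2.34-fold and CD38 1.33-fold, whereas GCSAM was 2.60-fold lower in L-428 (9.03 ± 0.051 in L-428 tGFP cells and 10.41 ± 0.071 in L-1236 tGFP cells). IRF4 differed by 0.16 and did not pass (adjusted p = 0.0609), though it passed under 4 of 22 alternatives, among them the fit without the third L-428 tGFP array. LMO2 and MME differed by -0.05 and 0.00 (adjusted p of 0.573 and 0.962).

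Between tGFP/EBF1 cells the same 6 genes passed in the same directions, where 50.5% of all rows passed, and 4 did so by at least 2-fold, where 7.65% of all rows did. BCL6 was 1.47-fold higher in L-428 tGFP/EBF1 than in L-1236 tGFP/EBF1 cells and no longer met the 2-fold limit. GCSAM was 3.37-fold lower in L-428, CD38 1.78-fold higher, IRF8 4.07-fold higher, MYBL1 5.46-fold higher and PRDM1 7.35-fold higher. These values follow from the changes within each line given above. IRF4, LMO2 and MME had differences of -0.02, -0.08 and 0.10 and did not pass. MME passed with another scaling, at 0.17 under quantile normalization (adjusted p = 0.00655) and 0.18 with each array centred on its median (adjusted p = 0.0179), and its adjusted p reached 0.329 under another of its 21 alternatives. Of all rows that passed in this comparison 55.8% were higher in L-428, and with each array centred on its median 66.5% were. The line differences of the 6 genes kept their direction and their call under all 22 alternatives.

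**Figure D3:**
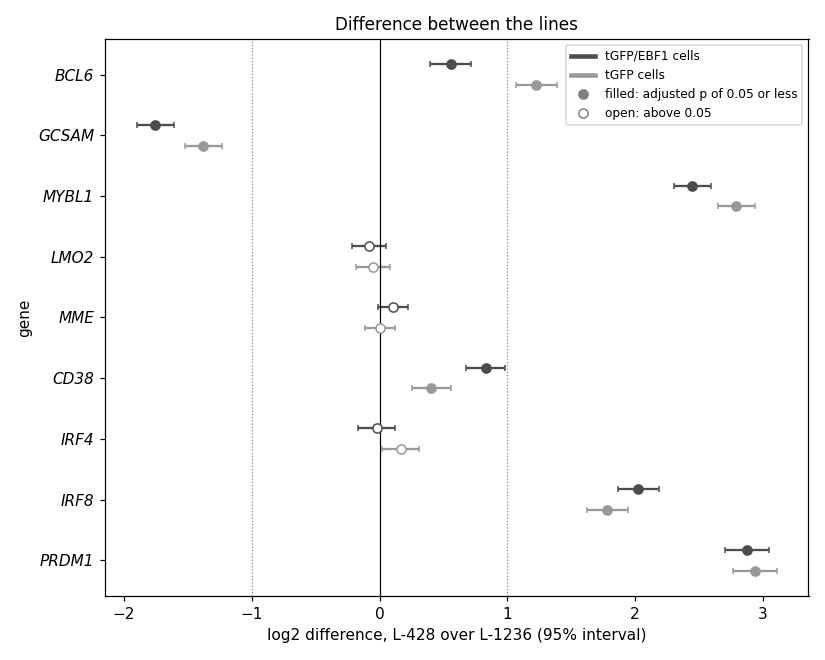
Log2 difference of L-428 over L-1236 for each gene, in tGFP/EBF1 cells and in tGFP cells, with 95% intervals from limma. Filled points passed the test, open points did not, and dotted lines mark 2-fold; MYBL1, IRF8 and PRDM1 lie beyond the right line and GCSAM beyond the left line in both, and BCL6 lies beyond the right line in tGFP cells.

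The wider germinal centre list, which includes BCL6, GCSAM, MYBL1, LMO2, MME and IRF8, had 23 of 25 genes measured. With EBF1, 3 rose and 2 fell in L-428, where 4.34% of all rows passed, and 2 rose and 1 fell in L-1236, where 9.64% did. The same shares of all rows stand behind the counts of every list below. The list had a median log2 change of -0.03 in L-428 and 0.04 in L-1236, against 0.00 and 0.01 over all rows tested. Among its other 17 genes, 2 rose in L-428 and 1 in L-1236, and none fell in either line by the limma test. SPIB, an ETS factor of germinal centre B cells, had a log2 level of 8.44 ± 0.066 in L-428 tGFP/EBF1 cells and 8.04 ± 0.051 in L-428 tGFP cells (SD, n = 3 each), a rise of 0.39 (adjusted p = 0.00382). EZH2, the histone methyltransferase that works with BCL6 in the germinal centre, rose by 0.27 in L-428 (adjusted p = 0.0493). In L-1236 the gene was ELL3, an elongation factor, which rose by 0.35 (adjusted p = 0.00333). Between the lines' tGFP cells, 10 genes of the list were higher and 7 lower in L-428, where 47.9% of all rows passed.

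All 20 genes of the plasma cell list were measured, CD38, IRF4 and PRDM1 among them. In L-428, 1 rose (CD38) and 1 fell. ELL2, the elongation factor that favours secretory immunoglobulin transcripts, fell by 0.27 (adjusted p = 0.0302). In L-1236 none rose and 4 fell, where 9.64% of all rows passed. SEC11C, a subunit of the signal peptidase, had a log2 level of 9.20 ± 0.14 in L-1236 tGFP/EBF1 cells and 9.77 ± 0.056 in L-1236 tGFP cells (SD, n = 3 each) and fell by 0.57 (adjusted p = 5.22e-05). HERPUD1, a factor in the degradation of endoplasmic reticulum proteins, fell by 0.33 (adjusted p = 0.00854), and FKBP11, a peptidyl-prolyl isomerase of secretory cells, fell by 0.20 (adjusted p = 0.0303). XBP1, the transcription factor that builds the secretory apparatus, was at 9.84 ± 0.069 in L-1236 tGFP/EBF1 cells and 10.15 ± 0.025 in L-1236 tGFP cells and fell by 0.31 (adjusted p = 0.0112). In L-428 XBP1 was at 10.91 ± 0.016 in tGFP/EBF1 cells and 10.68 ± 0.19 in tGFP cells, and its changes in the lines differed by 0.54 (adjusted p = 0.00482). The list's median log2 change was -0.02 in L-428 and 0.01 in L-1236.

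**Figure D4:**
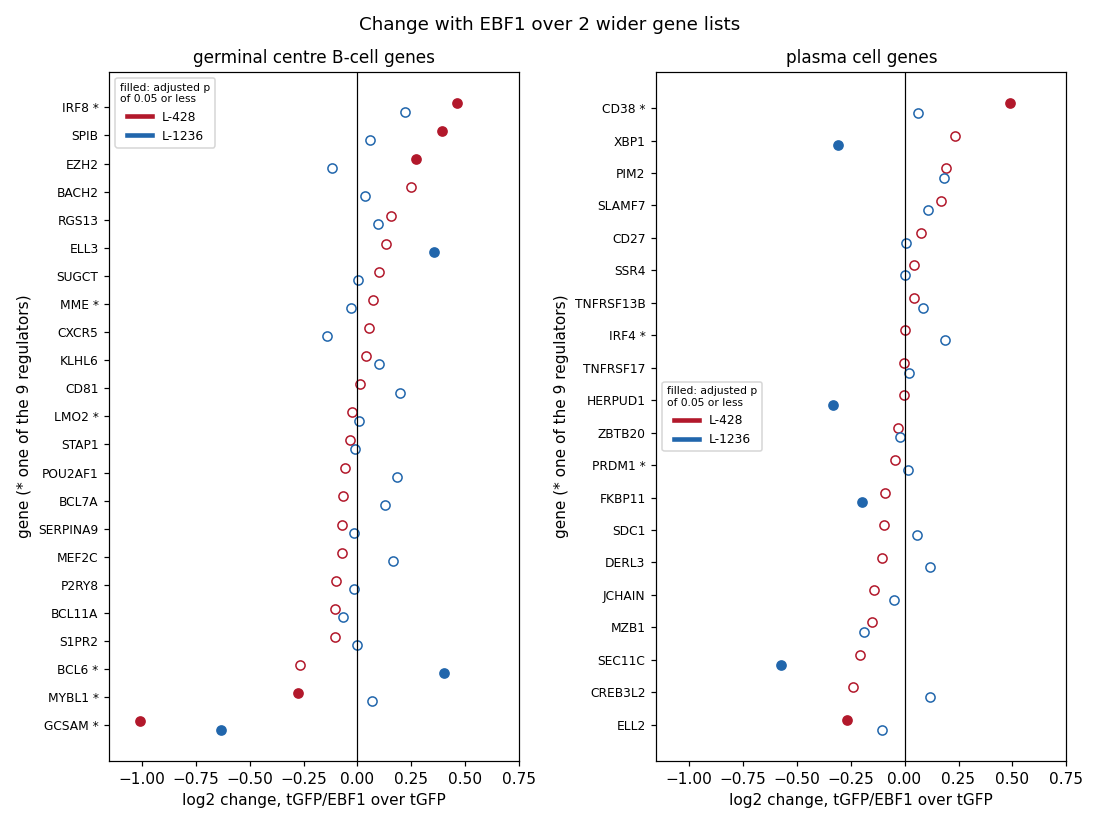
Log2 change of tGFP/EBF1 over tGFP cells for the measured genes of the germinal centre list (left, 23 genes) and the plasma cell list (right, 20 genes), ordered by the change in L-428. Filled points passed the test, open points did not, and asterisks mark the 9 regulators; SEC11C, HERPUD1, XBP1 and FKBP11 are filled on the negative side in L-1236.

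Of 8 measured members of the IRF family, IRF4 and IRF8 included, 2 rose in L-428 and none fell. IRF1, an interferon-induced activator, had a log2 level of 10.66 ± 0.062 in L-428 tGFP/EBF1 cells and 10.07 ± 0.19 in L-428 tGFP cells (SD, n = 3 each), a rise of 0.58 (adjusted p = 9.4e-05) that was larger than that of IRF8. In L-1236 none of the 8 passed by limma, and the nearest were IRF2 (0.20, adjusted p = 0.0528) and IRF1 (0.24, adjusted p = 0.0571). The family's median log2 change was 0.04 in L-428 and 0.19 in L-1236.

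Genes that BCL6 and PRDM1 are known to repress were listed to be read beside them. Of 14 measured genes of the BCL6 list, 2 rose in L-428 and none fell, where 4.34% of all rows passed. These were CD44, an adhesion receptor (0.47, adjusted p = 0.00105), and S1PR1, the receptor that guides lymphocytes out of tissue (0.44, adjusted p = 0.0286). In L-1236 3 genes of the list rose and 1 fell, where 9.64% of all rows passed. S1PR1 rose by 0.61 (adjusted p = 0.00115), the cell cycle inhibitor CDKN1A by 0.33 (adjusted p = 0.000478) and the cyclin CCND2 by 0.27 (adjusted p = 0.0332), while the chemokine CCL3 fell by 0.52 (adjusted p = 0.000498). The median log2 change of this list was 0.05 in L-428 and 0.00 in L-1236. Of 8 measured genes of the PRDM1 list, SPIB rose in L-428 and none fell, and in L-1236 BCL6 itself rose while CD22, an inhibitory B-cell receptor, fell by 0.40 (adjusted p = 0.00119) and CIITA, the activator of MHC class II genes, by 0.22 (adjusted p = 0.0185). This list's median log2 change was 0.02 in L-428 and 0.04 in L-1236.

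None of 5 measured corepressors and partners of BCL6 passed in either line by limma, the nearest being BCOR in L-428 (-0.22, adjusted p = 0.0963) and CTBP1 in L-1236 (-0.18, adjusted p = 0.116). All 6 partners of LMO2 in its complex were measured. LDB1, the protein that bridges LMO2 complexes, rose in both lines, by 0.31 in L-428 (adjusted p = 0.0238) and by 0.39 in L-1236 (adjusted p = 0.00199), while LMO2 did not pass in either.

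For the 5 genes whose group means spanned at least 1 log2 unit, the rows most like them over the 12 arrays were found among 19157 rows with 1 other symbol, by the root mean square distance between values centred on each row's own mean. The nearest to MYBL1 were LETM2 (0.0652 log2 units), CNTN1 (0.0868) and MET (0.0943), and the nearest to PRDM1 were PON2 (0.0625), MSN (0.0890) and UBE2J1 (0.0897). The median distance over all rows was 1.33 for MYBL1 and 1.47 for PRDM1. The nearest to IRF8 were GBP4, an interferon-induced GTPase (0.0604), PSD3 (0.114) and ABCB1 (0.119), and the nearest to BCL6 were H2AC21 (0.0968), PTGER4 (0.0980) and EEF2K (0.111), with medians of 0.986 and 0.501. GCSAM had no row as near, its nearest being IAH1 (0.269), FLI1 (0.276) and PHF19 (0.294) against a median of 0.892. Each median was near the root mean square of the gene's own values about their mean. That was 1.32 for MYBL1, 1.46 for PRDM1, 0.973 for IRF8, 0.485 for BCL6 and 0.892 for GCSAM. A row that did not vary would lie at that distance, so the medians do not show that the nearest rows are unusually alike. Each distance is over the same 12 arrays of 2 lines.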

How the data were processed

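The authors deposited 1 log2 value per array and row; how they were summarized and normalized is not given in the sources used here, log base 2 was taken from their range, and the values were used without further scaling. Rows were named from GEO's platform annotation, in which 19158 of 32321 rows carry 1 symbol, 1388 several and 11775 none, and 19128 matched the RefSeq gene table (GRCh38.p14). The 20546 rows with a symbol were fitted together on all 12 arrays, with a mean for each of the 4 groups, by lmFit and eBayes of limma 3.58.1 (R 4.3.3). The fit had 8 residual degrees of freedom and 9.98 prior ones. P-values were adjusted by Benjamini-Hochberg within each contrast, and a gene passed at 0.05 or less. Per the design text, the study's own limits were a false discovery rate of 5% and 2-fold. The contrasts set tGFP/EBF1 over tGFP cells within L-428 and within L-1236, then took the first change minus the second, and set L-428 over L-1236 among tGFP and among tGFP/EBF1 cells. With 3 arrays a group, the number of arrays limits the precision. Nothing used here says that the 3 samples of a group came from separate transductions, so the p-values measure the spread between these samples, which may be technical. The fit was tested on simulated data with independent errors for each row and array. Of 50 rows changed 1.25-fold, 88% passed in L-428 and 74% in L-1236, and all rows changed 1.5-fold or more passed. Deviations shared by the rows of an array were not simulated, so the test cannot show how the fit handles them.

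The 9 genes and the 7 gene lists (86 symbols, 78 measured) were chosen with earlier results of these data known. Every one of the 9 genes is named whether it passed or not. Each list names up to 4 passing genes in each EBF1 contrast by size of change, or the nearest 1 or 2 where none passed. Same-numbered arrays of different groups did not deviate together throughout (4 of 18 pairs had a correlation over 0.1), and numbers were not taken as pairs. Between tGFP/EBF1 and tGFP arrays of numbers 1, 2 and 3, the correlations were 0.23, -0.21 and -0.02 in L-428. In L-1236 they were 0.28, -0.07 and 0.19. A pairing within each line was not fitted, as the replicate block below shares each number across both lines. Alternatives were other scalings, filters, variance models, array weights, a replicate block and leaving out each array, and, chosen after seeing the data, leaving out the 2 arrays with the narrowest range in their groups. Figures were drawn with matplotlib 3.10.9.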

Additional observations from a re-analysis of the deposited data

Results flagged for a closer look

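For 4 of the 9 genes the change with EBF1 in L-428 and the change in L-1236 differed by the test of the difference itself, which 5.16% of all rows passed. As L-428 minus L-1236 on the log2 scale, the values were -0.67 for BCL6, -0.38 for GCSAM, -0.34 for MYBL1 and 0.42 for CD38. The call of BCL6 held under all 22 alternatives, while that of MYBL1 was lost in 13, that of GCSAM in 9 and that of CD38 in 6. BCL6 was higher with EBF1 in 3 of 3 L-1236 arrays and lower in 3 of 3 L-428 arrays, while GCSAM was lower with EBF1 in all arrays of both lines, and by more in L-428.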

How the results depend on the processing

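Over 45 results of single genes (9 genes in 5 contrasts) and 22 alternatives each, except for MME, which the filter on dim rows removed, 892 of 985 values kept their direction and their side of the threshold. Of the rest 36 lost a call, 25 gained one and 32 changed sign, and every change of sign was in a value that had not passed. The calls of GCSAM, CD38 and IRF8 in L-428, of GCSAM and BCL6 in L-1236, of BCL6 in the difference and of the 6 genes in both line contrasts held under all alternatives. The 4 genes passing in L-428 became 3 with median centring, with every row tested or with the L-428 arrays alone (MYBL1 lost), 5 under quantile normalization, with dim rows left out, with rows of 1 symbol only, with trend and robust variance, with array weights or without the 2 arrays of the narrowest range (BCL6 joining), 3 to 5 with 1 array left out, and 1 with the 2-fold limit. The 2 in L-1236 became 4 under quantile normalization, 4 with array weights, 4 without the 2 arrays of the narrowest range (IRF4 and IRF8 joining) and 0 with the 2-fold limit, and 2 to 4 with 1 array left out, 4 being without the third L-428 tGFP array. With the L-1236 arrays fitted alone IRF8 joined them (adjusted p = 0.0352). The 4 in the difference became 5 with array weights or without the 2 arrays (IRF4 joining), 2 with median centring, 1 with every row tested, 0 with the 2-fold limit, and 1 to 4 with 1 array left out. With the replicate number as a block the counts were 4 in L-428, 2 in L-1236, 3 in the difference (MYBL1 lost) and 6 in each line contrast. Without the block those 6 became 7 between tGFP cells with median centring, with array weights or without the 2 arrays (IRF4 joining), and 7 between tGFP/EBF1 cells under quantile normalization or median centring (MME joining). By replicate number, 4 of 12 arrays deviated most like an array of their own number.

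Signs changed as follows; the cause was not tested. Under quantile normalization LMO2 was -0.0073 in L-1236, 0.015 between tGFP cells and 0.0077 between tGFP/EBF1 cells, and with median centring LMO2 was 0.0083 between tGFP cells and IRF4 0.053 between tGFP/EBF1 cells. With array weights, fitted gene by gene because the other method did not converge, IRF4 was -0.065 and LMO2 0.012 in L-428. Without the 2 arrays of the narrowest range, IRF4 was -0.073 and LMO2 0.023 in L-428, CD38 was -0.017 and LMO2 -0.0039 in L-1236, and LMO2 was 0.027 in the difference. With 1 array left out, the L-428 change ran from -0.073 to 0.079 for IRF4, -0.069 to 0.023 for LMO2 and -0.17 to 0.025 for PRDM1. The L-1236 change ran from -0.017 to 0.12 for CD38, -0.0064 to 0.028 for LMO2 and -0.0094 to 0.054 for PRDM1. The difference ran from -0.076 to 0.016 for LMO2 and -0.18 to 0.011 for PRDM1. Between tGFP cells MME ran from -0.019 to 0.025, and between tGFP/EBF1 cells IRF4 ran from -0.048 to 0.018.

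Over all rows, 892 passed in L-428, against 1614 under quantile normalization, 498 with median centring and 1984 without the 2 arrays. In L-1236 1981 passed, against 3063 under quantile normalization, 1361 with median centring and 2640 without the 2 arrays. In the difference 1061 passed, against 1865, 599 and 1897 under the same 3 alternatives. Of the rows passing in L-428 60.3% were higher with EBF1, against 35.4% without the 2 arrays. Dim rows such as those of MME and LMO2 limit what a difference can show. The same holds for CD38 in L-1236, at percentile 28.2 of all rows in tGFP/EBF1 cells and 26.8 in tGFP cells.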
